A study of Arabidopsis thaliana with 12 samples.

Results

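The comparison described here is that of flg22-treated ate1-2 ate2-1 (a1a2) seedlings with flg22-treated Col-0 seedlings. It was chosen by the genotype and treatment labels and takes 6 of the 12 libraries of the series, 3 per genotype. The other 6 libraries are the same genotypes after mock treatment, and they entered the model only to share the estimate of variation and to show which differences were already there without the elicitor. Col-0 was the wild type, and a1a2 carried mutations in both Arg-transferase genes in the Col-0 ecotype. Seedlings of both genotypes were grown in continuous light on medium with sucrose, moved to liquid medium after 9 days, and given 1 µM flg22, or water as mock, for 1 h at an age of 10 days. A sample pooled 50 whole seedlings, so every value is an average over roots and shoots, and fewer cells of a type cannot be told apart from less RNA per cell. The mutant was 1 double-mutant line, and its rescue line was not analysed here. The replicates are biological replicates according to the design text, and libraries of the 2 genotypes and treatments share the numbers 1, 2 and 3.

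In the Arg/N-degron pathway, a protein whose N-terminus carries a destabilizing residue is degraded by the proteasome. For proteins that start with cysteine, PLANT CYSTEINE OXIDASE enzymes (PCOs) oxidize the cysteine with molecular oxygen, ATE1 and ATE2 attach arginine, and the ubiquitin ligase PROTEOLYSIS6 (PRT6) recognizes the product. Group VII ETHYLENE RESPONSE FACTORs (ERF-VIIs), which switch on fermentation and other genes of the low-oxygen response, are the best known substrates, so plants without arginylation keep them in air. The flg22 peptide of bacterial flagellin is perceived by the receptor kinase FLS2 and starts pattern-triggered immunity (PTI). The question put to this comparison was which genes differ between the genotypes while that response is under way.

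The 6 libraries held 20285662 to 22433536 counts, with 22121 to 22412 genes detected in each. Markers of root and of shoot were present in all of them, none at 0, and 0 of 15 root and 0 of 14 shoot markers differed between the genotypes in the test described next. Summed root markers reached 4504 to 4606 CPM (counts scaled to library size) in Col-0 and 3317 to 4611 CPM in a1a2, and summed shoot markers 28719 to 60578 CPM and 40772 to 57341 CPM. All 12 libraries entered 1 edgeR fit with the replicate number as a block, and the genotypes were compared by its quasi-likelihood F-test. Genes are called differentially expressed (DEGs) where the p adjusted over all tested genes lay under 0.05 and the change exceeded 1.5-fold. Fold changes are given as log2(a1a2/Col-0) ± SE, and levels as CPM of replicates 1, 2 and 3 in that order. The SE was derived as the size of the log2 fold change divided by the square root of F, and is rough for genes with almost no counts.

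Both mutated genes were low in the libraries labelled a1a2. ATE1 transcripts stood at 28.4, 24.8 and 20.7 CPM in wild-type seedlings and 2.77, 4.22 and 2.47 CPM in mutant seedlings. ATE2 stood at 4.68, 6.04 and 5.0 CPM and 0.202, 0.417 and 0.148 CPM. Ranges of the genotypes were separate for both, and the fold changes were -2.97 ± 0.15 (adjusted p 1.44e-06) and -4.34 ± 0.3 (adjusted p 1.27e-05). Both kept their call in every alternative fit and in all 6 fits that left out 1 library.

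Of 20439 tested genes, 169 were DEGs (0.827%), with 63 higher (0.308%) and 106 lower (0.519%) in a1a2 after flg22. The higher genes changed more. Their median log2 fold change was 2.1, and 33 of them exceeded 4-fold, whereas the median of the lower genes was -1.03 and 11 of them exceeded 4-fold. CPM ranges of the genotypes were separate for 54 of the 63 higher and 67 of the 106 lower DEGs, beside 3.55% of all tested genes separate and higher and 4.45% separate and lower, 8% together. The sign was the same in all 3 pairs of equal replicate number for 62 higher and for all 106 lower DEGs.

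The number of DEGs rested on the block and on single libraries. Without the block, 28 of the 169 genes remained, 21 higher and 7 lower, and no other gene was called. The 21 were PCO1, PCO2, FTM1, SUS4, HB1, AT3G03270, PDC1, AT4G33560, HRA1, ACO1, AT4G10270, ICL, AT1G12805, AT3G06435, AT1G75945, AT5G46295, AT3G56210, AGL44, LBD40, QQS and bHLH093. The 7 were ATE1, ATE2, AT5G24240, GolS1, AT4G11320, DR4 and APS4. Leaving out 1 library at a time gave 69 to 156 DEGs, and 56 of the 169 (35 higher, 21 lower) were called in all 6 of these fits. The lowest numbers came without replicate 2 of Col-0 (69) or replicate 2 of a1a2 (72), and 94 DEGs were called without replicate 3 of a1a2. The other DEGs named below were not called in the 12-library edgeR fit without the block.

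**Figure D1:**
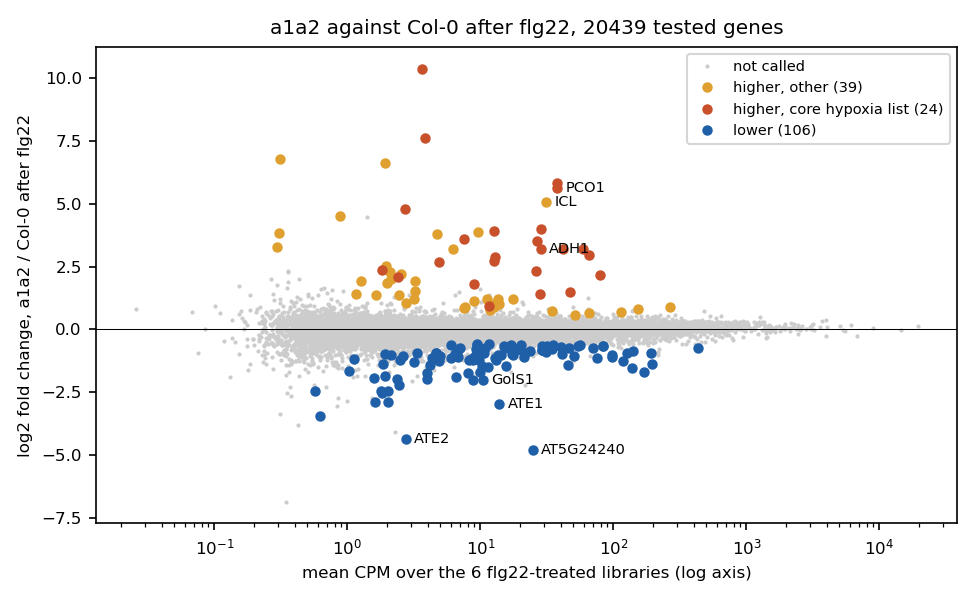
Log2 ratio of a1a2 to Col-0 after flg22 (vertical axis) against the mean CPM over the 6 libraries (horizontal, log axis) for every tested gene. Grey points were not called, red points are the 24 DEGs of the core hypoxia list, orange points the other 39 higher DEGs and blue points the 106 lower DEGs; the higher DEGs reach further from 0 than the lower ones, and fitted values of genes with almost no Col-0 counts, at the top left, are not bounds.

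Genes of the low-oxygen response were among the higher DEGs. This list and the other functional lists were chosen with earlier results of these data known. Their counts beside the shares of all tested genes are descriptive and not independent evidence. Of the 49 tested genes of the core hypoxia list, 24 rose in a1a2 and 0 fell, beside 0.308% of all tested genes that rose. The median log2 fold change of the list was 0.916, beside 0.001 for all tested genes. Genotypes did not overlap for any of the 24 genes, beside 3.55% of all tested genes. Their median log2 fold change was 3.09, and in all 24 the a1a2 library of replicate 1 was the highest of the 3. Leaving out 1 library gave 22 to 25 DEGs in the list, and without the block 11 of the 24 were called.

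The oxygen-sensing enzymes themselves were among these genes. PCO1 was at 1.39, 1.7 and 1.41 CPM in Col-0, against 90.5, 73.8 and 58.4 CPM in a1a2. This was the lowest p of all tested genes (5.61 ± 0.13, adjusted p 3.56e-10). PCO2 was at 1.44, 1.7 and 1.6 CPM in Col-0 and 29.6, 21.4 and 20.7 CPM in a1a2 (3.9 ± 0.18, adjusted p 6.60e-07). Among 14 tested enzymes of the Arg/N-degron pathway, which include PRT6, the other PCOs and the N-terminal amidases, 10 were not called. PCO1 and PCO2 rose (beside 0.308% of all tested genes), and the mutated genes ATE1 and ATE2 fell (beside 0.519%). All 4 calls held without the block.

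Fermentation and sucrose breakdown genes rose with them. ADH1, the alcohol dehydrogenase of ethanol fermentation, was at 7.92, 5.11 and 2.82 CPM in Col-0 and 94.1, 29.6 and 30.3 CPM in a1a2 (3.21 ± 0.27, adjusted p 0.000181). PDC1, the pyruvate decarboxylase that acts before it, was at 3.96, 3.1 and 2.72 CPM and 32.5, 16 and 18.1 CPM (2.73 ± 0.24, adjusted p 0.000181). Sucrose synthases cleave sucrose without spending ATP on the step, and SUS4 changed from 3.28 ± 0.995 CPM to 53.9 ± 20.3 CPM (SD, n = 3), a log2 fold change of 3.99 ± 0.31 (adjusted p 0.000144). In SUS1 the rise was 1.51 ± 0.19 (adjusted p 0.0044), from 23.9 ± 5.35 CPM to 70.0 ± 28.5 CPM (SD, n = 3). The lowest a1a2 library stood above the highest Col-0 library in each of these 4 genes, and within a1a2 replicate 1 stood well above the other 2 libraries.

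To show what lies in front of genes that rose together, the 300 bases before the annotated start of 2 members are printed 5′ to 3′ from RefSeq TAIR10.1. They are ADH1 (chr1:28974955-28975254, plus strand) and PDC1 (chr4:15954804-15955103, minus strand). Capitals mark AAACCA, the core of the anaerobic element described in ADH1 promoters, searched on both strands.
ADH1: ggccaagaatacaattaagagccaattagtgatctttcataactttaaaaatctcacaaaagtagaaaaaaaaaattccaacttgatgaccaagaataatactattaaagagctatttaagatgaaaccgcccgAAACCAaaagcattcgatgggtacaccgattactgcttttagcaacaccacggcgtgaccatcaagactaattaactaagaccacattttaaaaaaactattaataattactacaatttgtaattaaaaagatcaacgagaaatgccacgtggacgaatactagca
PDC1: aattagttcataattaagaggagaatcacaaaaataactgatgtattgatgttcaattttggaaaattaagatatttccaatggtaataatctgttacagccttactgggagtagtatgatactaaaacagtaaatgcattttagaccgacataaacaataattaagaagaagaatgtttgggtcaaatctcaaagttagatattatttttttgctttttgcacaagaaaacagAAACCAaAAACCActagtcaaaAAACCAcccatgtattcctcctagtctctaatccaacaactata
ADH1 holds the element 161 to 166 bases before its start while PDC1 holds 3 copies within 66 bases. The letters occurred in 11 of the 24 core hypoxia DEGs (45.8%), in 5 of the 25 members that were not called (20%) and in 32% of the 20438 tested genes with such a window. Windows of PCO1, PCO2, HB1, HRA1, HRE1, HRE2 and SUS4 were among those without these letters.

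Transcriptional regulators of the low-oxygen response formed a further group. HRE1 and HRE2 encode the ERF-VIIs whose genes are themselves induced by low oxygen. HRE2 was at 0.822, 0.877 and 0.972 CPM in Col-0 and 5.44, 3.23 and 3.16 CPM in a1a2 (2.1 ± 0.26, adjusted p 0.00184). HRE1 was at 9.92, 8.92 and 5.34 CPM and 19.8, 11.7 and 13.5 CPM (0.92 ± 0.17, adjusted p 0.0294), and it kept its call in only 1 of the 6 fits without a library, with an adjusted p of up to 0.145 without replicate 3 of a1a2. Of 7 tested genes for Cys-type N-degron substrates, which hold the ERF-VIIs, VRN2 and ZPR2, these 2 rose (beside 0.308% of all tested genes) and 5 were not called. HRA1, a trihelix protein that restrains the ERF-VII RAP2.12, rose by 2.69 ± 0.27 (adjusted p 0.000344). LBD41, a LOB-domain protein, rose by 2.15 ± 0.19 (adjusted p 0.00027) and was already well expressed in Col-0 after flg22 (42.8, 30.7 and 15.3 CPM, against 172, 133 and 78.3 CPM in a1a2).

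Other core hypoxia genes spanned the widest range of change. HB1, a haemoglobin that removes nitric oxide, was at 12.8, 10.8 and 10.1 CPM in Col-0 and 156, 82 and 85.3 CPM in a1a2 (3.2 ± 0.26, adjusted p 0.000181). ACO1, an enzyme of the last step of ethylene synthesis, was at 11.1, 7.79 and 7.0 CPM and 49.1, 33.6 and 47.2 CPM (2.34 ± 0.14, adjusted p 5.10e-06). It was the single call among 18 ethylene genes (beside 0.308% of all tested genes that rose). FTM1, annotated as an acyl carrier protein desaturase, was at 1.85, 0.774 and 1.46 CPM and 120.0, 41.3 and 61.5 CPM (5.83 ± 0.36, adjusted p 1.98e-05). All 3 were called in every alternative and in all 6 fits without a library.

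A few members were close to silent in Col-0. AT2G17850, annotated as a rhodanese-like protein, had 0 counts in all 3 Col-0 libraries and stood at 11.9, 4.33 and 5.48 CPM in a1a2, at least 47.8-fold higher when 3 counts per library are taken as the floor. AT3G29970, a B12D protein, had at most 2 counts per Col-0 library and 14.2, 5.47 and 3.31 CPM in a1a2, at least 50.6-fold higher. Their adjusted p-values were 0.000145 and 8.61e-06. The wound-responsive family gene AT4G10270 was at 0.206, 0.103 and 0.243 CPM and 7.36, 3.96 and 4.39 CPM (4.78 ± 0.31, adjusted p 8.61e-06). For all 3 genes the a1a2 libraries lay well apart from those of Col-0, while their levels in a1a2 stayed under 15 CPM.

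**Figure D2:**
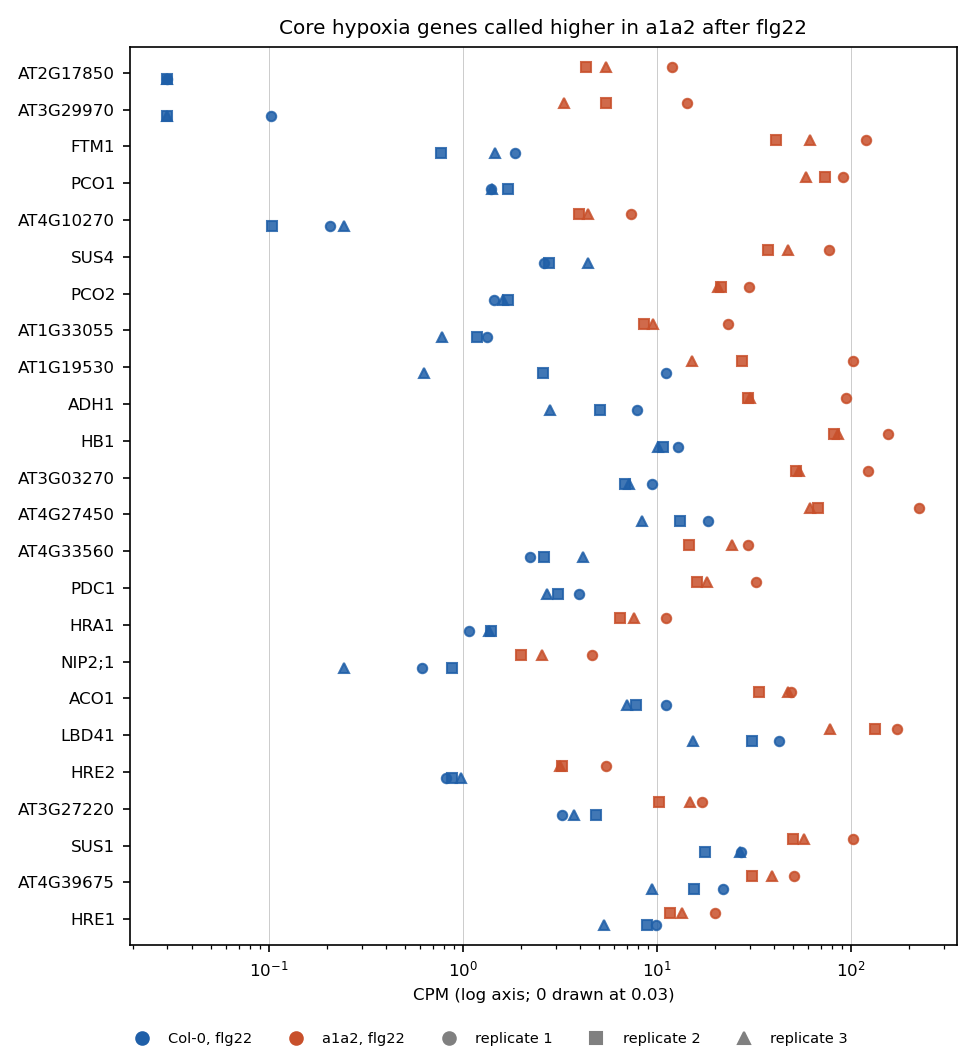
CPM (log axis) of the 24 core hypoxia genes that rose in a1a2, ordered by fitted fold change, with 1 point per library. Blue points are flg22-treated Col-0, red points flg22-treated a1a2 and the marker shape is the replicate number; in every gene all red points lie to the right of all blue points, and the red circle of replicate 1 lies furthest right.

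The other core hypoxia DEGs kept the same separation. AT4G27450, annotated as an aluminium-induced protein, was at 18.2, 13.2 and 8.41 CPM and 225, 67.3 and 61.3 CPM (2.98 ± 0.29, adjusted p 0.000653). AT1G19530 was at 11.2, 2.58 and 0.632 CPM and 102, 27.4 and 15.1 CPM (3.51 ± 0.28, adjusted p 0.000149), with replicate 1 far above replicate 3 in both genotypes. AT1G33055 had a log2 fold change of 3.61 ± 0.34 (adjusted p 0.000317). Smaller rises were those of AT3G27220, a kelch repeat protein (1.8 ± 0.28, adjusted p 0.014), and AT4G39675 (1.41 ± 0.2, adjusted p 0.00753), and NIP2;1, a lactic acid and water channel of hypoxic roots, stood at 0.617, 0.877 and 0.243 CPM and 4.64, 1.98 and 2.57 CPM (2.38 ± 0.35, adjusted p 0.00638). AT3G27220 lost its call in 2 and AT4G39675 in 1 of the 6 fits without a library.

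The remaining 25 core hypoxia genes were not called, with log2 fold changes of -0.63 to 1.37, 19 of them positive and 8 with an unadjusted p under 0.05 (beside 13.3% of all tested genes). They included well expressed genes, such as PDC2, a second pyruvate decarboxylase gene, at 97.2 ± 54.3 CPM in Col-0 and 94 ± 55.9 CPM in a1a2 (SD, n = 3), and AlaAT1, an alanine aminotransferase of the low-oxygen response, at 715 ± 134 CPM and 746 ± 186 CPM (SD, n = 3), both picked after their values were seen. In an independent published list of seedling genes that rose after 2 h of hypoxia, of which only names and direction were used, 31 of 425 tested genes rose in a1a2 (beside 0.308% of all tested genes) and 1 fell, with a median of 0.104. Of the 232 tested genes that fell in that hypoxia experiment, 0 rose and 4 fell in a1a2 (beside 0.519%).

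Outside the core hypoxia list, 39 genes rose. ICL, isocitrate lyase of the glyoxylate cycle through which germinating seedlings turn stored oil into sugar, was at 1.85, 1.5 and 1.8 CPM in Col-0 and 99.7, 36.3 and 46.8 CPM in a1a2 (5.06 ± 0.25, adjusted p 5.10e-06). It was the only call among 21 tested genes of seed reserve and oil mobilization (beside 0.308% of all tested genes that rose). The median of these 21 genes was -0.097. Of 7 seed storage markers, 2 passed the filter, and their summed level was 0.05 to 0.39 CPM in Col-0 and 0.52 to 6.12 CPM in a1a2 without a call (lowest adjusted p 0.192, for SESA4). Their part in the result for ICL was not tested.

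Several of the strongest rises belonged to genes of unknown function. AT3G06435 was at 0.463, 0.722 and 0.729 CPM in Col-0 and 8.72, 8.91 and 8.88 CPM in a1a2 (3.78 ± 0.28, adjusted p 1.98e-05), with little spread within either genotype. AT5G46295 was at 1.59, 0.98 and 1.07 CPM and 14.9, 18.7 and 20.1 CPM (3.87 ± 0.25, adjusted p 5.08e-05). AT1G12805, annotated as a nucleotide binding protein, had at most 1 count per Col-0 library and 4.38, 2.35 and 4.74 CPM in a1a2, at least 25.2-fold higher (adjusted p 0.000558). All 3 kept their call without the block and in all 6 fits without a library.

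Some higher DEGs outside the lists were singled out after their values were seen, for what they encode. AGL44 is a MADS-box factor known from the root response to nitrate, with at most 3 counts per Col-0 library and 2.07, 1.25 and 1.73 CPM in a1a2, at least 11.1-fold higher (adjusted p 0.00215). QQS, an orphan gene that affects starch content, was at 0.822, 0.774 and 1.07 CPM and 3.23, 5.32 and 3.9 CPM (2.2 ± 0.22, adjusted p 0.000315). The abscisic acid hydroxylase gene CYP707A3 was at 47.7, 56.4 and 46.6 CPM and 68.7, 92.2 and 78.4 CPM (0.66 ± 0.08, adjusted p 0.00102), a small change with no overlap. Trehalose metabolism was represented by TPPJ (trehalose phosphatase, 0.87 ± 0.14, adjusted p 0.00928) and TRE1 (trehalase, 0.84 ± 0.16, adjusted p 0.0296), and TRE1 lost its call in each of the 6 fits without a library.

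More modest rises, also named after their values were seen, included metabolic and cell wall genes. NEET, an iron-sulfur cluster protein, was at 7.4, 11.6 and 5.78 CPM in Col-0 and 14.2, 23.7 and 19.3 CPM in a1a2 (1.23 ± 0.15, adjusted p 0.00162). PMEPCRA, a pectin methylesterase, was at 207, 155 and 199 CPM and 368, 266 and 412 CPM (0.89 ± 0.12, adjusted p 0.00392). Both had separate genotypes and held in all 6 fits without a library. GLB3, a truncated haemoglobin, was at 9.15, 7.48 and 9.38 CPM and 15.8, 13.7 and 15.3 CPM (0.78 ± 0.15, adjusted p 0.033), called in 2 of these fits. The aspartate aminotransferase gene ASP2 had a log2 fold change of 0.83 ± 0.16 (adjusted p 0.0381) and was called in none of them.

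Early markers of the flg22 response did not yield a DEG. Among 28 such genes, 0 were called in either direction and 6 had an unadjusted p under 0.05 (beside 13.3% of all tested genes). Of the 28 estimates 23 were positive, and the median was 0.201 after flg22 and -0.241 in mock. The lowest adjusted p was that of WRKY22, a WRKY factor of the MAP kinase pathway below FLS2, at 243, 183 and 176 CPM in Col-0 and 286, 227 and 216 CPM in a1a2 (0.28 ± 0.08, adjusted p 0.149). FRK1, the classical PTI marker, was at 89.1, 16.1 and 11.4 CPM and 37.2, 13.9 and 5.67 CPM, so replicates of 1 genotype differed more than the genotypes did. Of 22 receptor complex and signalling genes 0 were called and 1 had an unadjusted p under 0.05 (beside 13.3% of all tested genes). Their median was 0.056, with the lowest adjusted p for the kinase gene MKK4 (0.34 ± 0.12, adjusted p 0.262). DESeq2 with the block also called 0 genes in both lists. GSL5, the callose synthase of the flg22 response, was at 138, 152 and 115 CPM and 147, 145 and 116 CPM (0.01 ± 0.11, adjusted p 0.99), and the stress gene SAG21 had a log2 fold change of 0.09 ± 0.12 (adjusted p 0.824). The sign of both moved with the fit.

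Hormone pathways of defence gave few calls in edgeR. Of 17 salicylic acid genes, 0 were called by edgeR and 4 had an unadjusted p under 0.05 (beside 13.3% of all tested genes). For 4 the genotypes were separate and lower in a1a2 (beside 4.45% of all tested genes). DESeq2 with the block called 3 of the 17. It called 275 of all 20439 genes, to be set beside its list counts here and below. The lowest edgeR value was that of ALD1, which makes the precursor of the immune signal pipecolic acid (-0.92 ± 0.21, adjusted p 0.0687). Among 31 jasmonate genes, 1 fell (beside 0.519% of all tested genes) and 0 rose, with a median of -0.107. That gene was VSP1, a vegetative storage protein and jasmonate marker, at 8.27, 14.3 and 19.1 CPM in Col-0 and 1.97, 3.08 and 5.67 CPM in a1a2 (-1.99 ± 0.19, adjusted p 0.00027). VSP1 kept its call in all 6 fits without a library. It was also called lower in mock (-1.62 ± 0.18), although the study placed it among genes that changed in the mutant only with flg22.

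The list of defensins, chitinases and PR genes, which also holds thionins, lipid transfer proteins and the receptor-like kinase gene CRK25, had 3 genes that fell and 0 that rose among 17 tested. The 3 are genes that the study names for these same samples, so their count beside the 0.519% of all tested genes that fell is not independent evidence. The study, which used DESeq2, placed them among genes that changed in the mutant only with flg22. In the fit used here, PDF2.1 (-1.99 ± 0.29) and CHIA (-1.09 ± 0.19) were also called lower in mock, whereas CRK25 (-0.72 ± 0.18) was not. PDF2.1, a plant defensin, was at 3.44, 2.73 and 3.98 CPM in Col-0 and 0.554, 0.417 and 0.937 CPM in a1a2 (-2.46 ± 0.3, adjusted p 0.00159). CRK25, which is cysteine-rich in its outer part, was at 17.4, 18.6 and 20.6 CPM and 8.52, 7.66 and 12.4 CPM (-1.0 ± 0.18, adjusted p 0.0245). CHIA, an acidic chitinase, was at 13.1, 11.5 and 12.5 CPM and 7.46, 5.89 and 7.06 CPM (-0.86 ± 0.18, adjusted p 0.0434). The genotypes did not overlap in any of the 3. PDF2.1 held in all 6 fits without a library, while CRK25 and CHIA each lost their call in 4 of them, reaching an adjusted p of 0.148 for CRK25 and 0.258 for CHIA without replicate 2 of a1a2.

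Glucosinolates, the sulfur-rich defence compounds of the cabbage family, are cleaved by myrosinases after damage. Of 19 indolic glucosinolate genes 3 fell (beside 0.519% of all tested genes), 0 rose and the median was 0.09. MYB34, an activator of the pathway, was at 13.9, 20.0 and 23.9 CPM in Col-0 and 8.11, 10.7 and 15.5 CPM in a1a2 (-0.75 ± 0.1, adjusted p 0.00266). Also lower were genes of a pair of steps that modify the indole ring, the methyltransferase IGMT5 (-0.88 ± 0.11, adjusted p 0.00246) and the hydroxylase CYP81F4 (-0.92 ± 0.13, adjusted p 0.00634). IGMT5 was at 40.0, 40.5 and 40.1 CPM and 18.7, 19.9 and 27.5 CPM, and all 3 genes were called in the 6 fits without 1 library, but none of them with replicate 2 of both genotypes left out.

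Among 30 aliphatic glucosinolate genes 0 were DEGs, although 24 of the log2 fold changes were negative and 14 genes had an unadjusted p under 0.05 (beside 13.3% of all tested genes), with a median of -0.246. DESeq2 with the block called 3 of them. MAM1, of side chain elongation, had an adjusted p of 0.0471 but a change under 1.5-fold (-0.44 ± 0.09). BCAT4, of the first step of that elongation, was at 102, 128 and 164 CPM and 53.6, 77.3 and 139 CPM (-0.63 ± 0.15, adjusted p 0.0992), and replicate 3 of a1a2 lay above replicates 1 and 2 of Col-0. Of 21 myrosinase and breakdown genes, 1 fell (beside 0.519% of all tested genes) and 1 rose (beside 0.308%). The myrosinase TGG2 was at 451, 587 and 605 CPM and 359, 293 and 320.1 CPM (-0.74 ± 0.13, adjusted p 0.0211), and BGLU28, a glucosidase known from sulfur limitation, was at 0.463, 0.877 and 0.389 CPM and 3.68, 4.48 and 1.78 CPM (2.53 ± 0.42, adjusted p 0.0165). Both lost their call in 4 of the 6 fits without a library (adjusted p up to 0.163 and 0.105 without replicate 2 of a1a2). None of 9 camalexin and related genes was called, and 1 had an unadjusted p under 0.05 (beside 13.3% of all tested genes). DESeq2 with the block called 1, and all 9 estimates were negative. The lowest adjusted p was that of CYP71A13, of camalexin synthesis, at 8.94, 5.06 and 1.6 CPM and 3.12, 0.782 and 0.592 CPM (-1.83 ± 0.45, adjusted p 0.109).

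**Figure D3:**
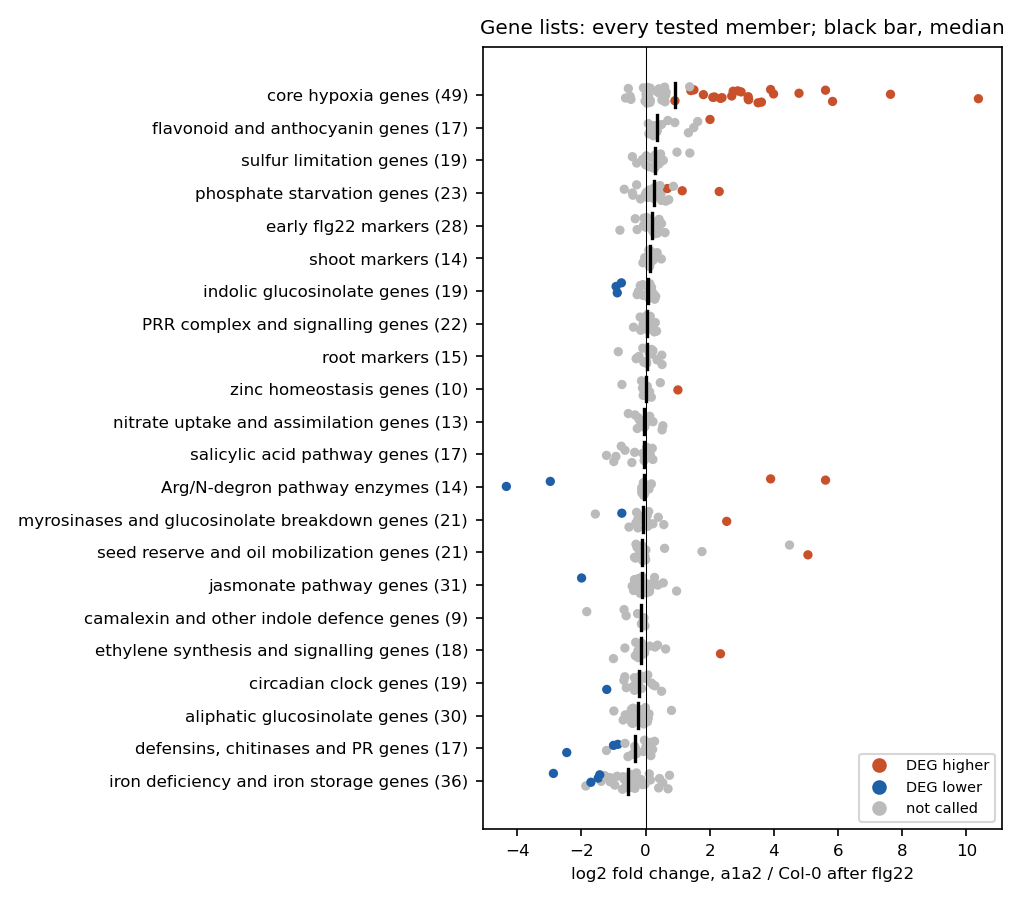
Log2 ratio of a1a2 to Col-0 after flg22 for every tested member of the lists with at least 9 tested genes (number tested in brackets), with the list median as a black bar. Red and blue points are DEGs and grey points were not called; the core hypoxia list has its median at 0.916 and the iron list at -0.555, and the early flg22 markers hold grey points only.

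Several of the largest falls lay outside the lists. AT5G24240, annotated as a phosphatidylinositol 4-kinase gamma-like protein, was at 62.7, 49.2 and 31 CPM in Col-0 and 2.22, 1.36 and 1.48 CPM in a1a2 (-4.79 ± 0.3, adjusted p 1.98e-05). It fell further than either mutated gene and was called in every alternative. GolS1, galactinol synthase of raffinose synthesis, was at 14.9, 16.6 and 18.8 CPM and 4.28, 3.23 and 5.08 CPM (-1.99 ± 0.15, adjusted p 1.98e-05). The cytochrome P450 gene CYP71A19 fell by 1.99 ± 0.2 (adjusted p 0.000315) and the putative transporter gene AT3G45680 by 2.52 ± 0.31 (adjusted p 0.00186) on the log2 scale, both without overlap.

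Other strong falls were carried by few counts. AT1G53890, a LURP-one-like protein, was at 2.36, 5.57 and 1.26 CPM and 0.806, 0.521 and 0.247 CPM (-2.44 ± 0.33, adjusted p 0.00339). AT4G04990 was at 2.98, 4.75 and 4.42 CPM and 0.806, 1.04 and 0.74 CPM (-2.22 ± 0.3, adjusted p 0.00409). AT4G14060, a lipid transport superfamily protein, was at 2.52, 3.25 and 2.67 CPM and 0.252, 0.417 and 0.493 CPM (-2.87 ± 0.48, adjusted p 0.0164), and it lost its call in 4 of the 6 fits without a library. More abundant genes among those that held without the block, named here after their values were seen, were the papain family protease gene AT4G11320 (297, 273 and 213 CPM against 68.6, 67.9 and 107 CPM, -1.69 ± 0.19, adjusted p 0.00209) and DR4, a drought-repressed gene (309.8, 315 and 220.1 CPM against 101, 107 and 121 CPM, -1.36 ± 0.17, adjusted p 0.00339).

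Iron uptake regulators were among the lower DEGs. Of 36 tested iron deficiency and storage genes 4 fell and 0 rose (beside 0.519% of all tested genes that fell), 29 estimates were negative, 28 genes had an unadjusted p under 0.05 (beside 13.3% of all tested genes) and the median was -0.555. Of the 4, 3 encode bHLH factors that partner FIT to switch on iron uptake in roots. For bHLH38, Col-0 stood at 8.17, 18.1 and 23.6 CPM and a1a2 at 2.72, 4.54 and 11.7 CPM (-1.48 ± 0.26, adjusted p 0.0274). For bHLH100 the values were 8.12, 14.1 and 23.2 CPM and 2.62, 3.7 and 7.89 CPM (-1.7 ± 0.26, adjusted p 0.0109). In both genes replicate 3 was the highest of each genotype, and a1a2 was lower in all 3 pairs. The third, bHLH101, had a log2 fold change of -1.43 ± 0.29 (adjusted p 0.044). NAS2, nicotianamine synthase of metal transport, was at 2.62, 4.13 and 3.89 CPM and 0.554, 0.261 and 0.641 CPM (-2.87 ± 0.45, adjusted p 0.0126). The count in this list rested on the fit, with 12 DEGs in DESeq2 with the block, 0 without the block, 0 without replicate 2 of a1a2 and 1 without replicate 2 of Col-0.

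Of the iron genes that were not called, 6 are given here, picked after their values were seen. IRT1, the main iron uptake transporter of roots, was at 174, 324 and 325 CPM in Col-0 and 101, 112 and 250.0 CPM in a1a2 (-0.89 ± 0.22, adjusted p 0.115). FRO2, the ferric chelate reductase that acts before it, had a log2 fold change of -0.72 ± 0.26 (adjusted p 0.271). CYP82C4, of the coumarins that roots release to mobilize iron, was at 19.2, 104 and 95.6 CPM and 20.7, 13.5 and 45.9 CPM (-1.27 ± 0.44, adjusted p 0.251). All 3 values were negative and did not pass the test. The ferritin genes, whose products store iron, had positive values that did not pass either, 0.75 ± 0.22 for FER1 (adjusted p 0.177), 0.44 ± 0.14 for FER3 (adjusted p 0.222) and 0.54 ± 0.13 for FER4 (adjusted p 0.0784).

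The promoter windows of bHLH38 (chr3:21085246-21085545, minus strand) and bHLH100 (chr2:17199455-17199754, minus strand) are printed because these genes of 1 family fell together and share a word. Each is 300 bases before the start in RefSeq TAIR10.1, 5′ to 3′, with the G-box CACGTG, which reads the same on both strands, in capitals.
bHLH38: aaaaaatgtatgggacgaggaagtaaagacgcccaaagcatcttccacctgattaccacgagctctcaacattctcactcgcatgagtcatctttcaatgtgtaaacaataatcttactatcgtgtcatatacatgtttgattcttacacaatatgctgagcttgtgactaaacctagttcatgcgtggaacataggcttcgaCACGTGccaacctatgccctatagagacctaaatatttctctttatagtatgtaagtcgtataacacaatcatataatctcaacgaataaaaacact
bHLH100: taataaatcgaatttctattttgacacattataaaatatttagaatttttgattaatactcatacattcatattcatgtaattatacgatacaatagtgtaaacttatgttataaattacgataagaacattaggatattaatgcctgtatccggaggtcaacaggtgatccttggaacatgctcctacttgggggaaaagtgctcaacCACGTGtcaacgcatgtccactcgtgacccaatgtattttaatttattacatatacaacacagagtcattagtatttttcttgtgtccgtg
The word lies 92 to 97 bases before the start of bHLH38 and 86 to 91 bases before that of bHLH100. It occurred in 6 of the 36 iron genes (16.7%), in 10 of the 106 lower DEGs (9.43%) and in 7.8% of all tested genes with a window, and the windows of bHLH101 and NAS2 did not hold it.

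**Figure D4:**
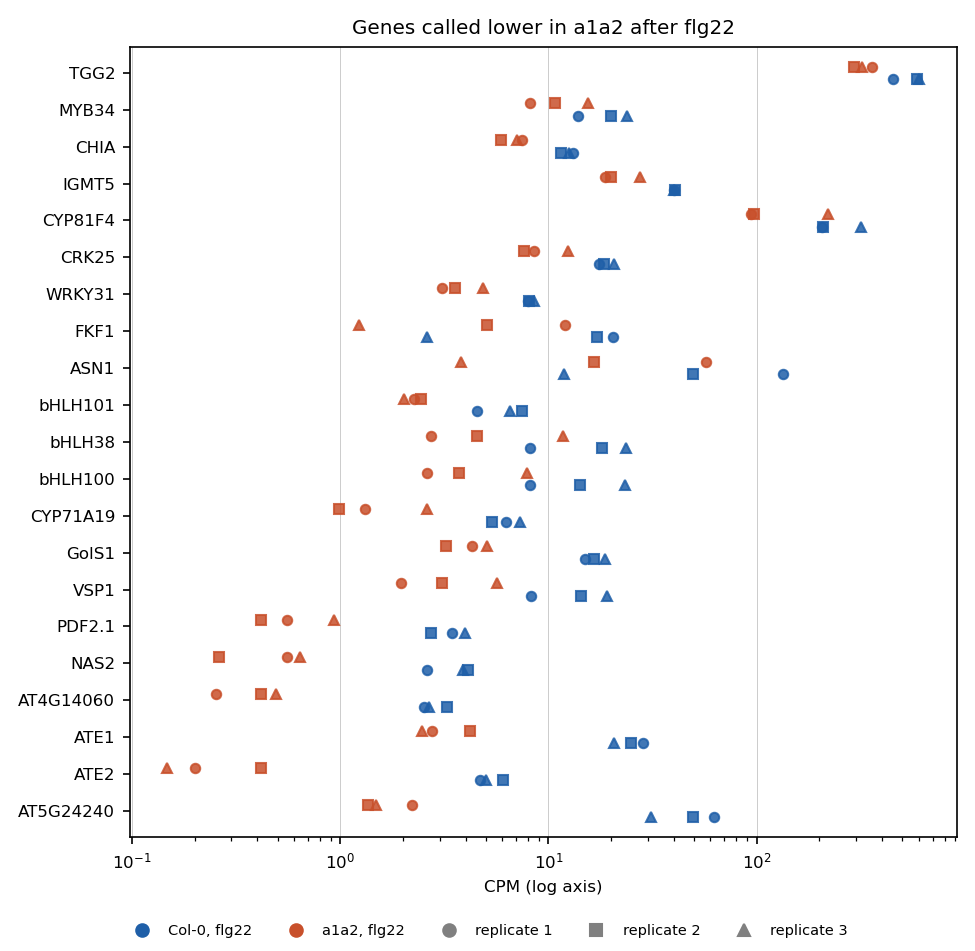
CPM (log axis) of 21 genes that fell in a1a2 after flg22, picked to cover the groups described, ordered by fitted fold change, with 1 point per library (blue, Col-0; red, a1a2; shape, replicate number). Genes such as AT5G24240, GolS1 and PDF2.1 have separate genotypes, whereas FKF1 and ASN1 differ more between replicates than between genotypes and show the difference within each replicate number.

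Genes of other nutrients gave few calls after flg22. Of 23 phosphate starvation genes 3 rose (beside 0.308% of all tested genes) and 0 fell, with a median of 0.249. In mock, 8 of the 23 were called higher (beside 0.445% of all tested genes). IPS1, a non-coding RNA that sequesters miR399, was at 0.257, 1.34 and 0.437 CPM in Col-0 and 0.655, 6.2 and 3.6 CPM in a1a2 (2.3 ± 0.44, adjusted p 0.0338). PAP17, a purple acid phosphatase, was at 3.91, 5.62 and 7.0 CPM and 7.76, 14.3 and 14.9 CPM (1.14 ± 0.16, adjusted p 0.00522). SQD1, of the sulfolipids that replace phospholipids, had a log2 fold change of 0.68 ± 0.11 (adjusted p 0.0143). Only PAP17 had separate genotypes, and the number of calls was 0 without replicate 2 of Col-0 and 1 without replicate 2 of a1a2. The zinc transporter gene ZIP3 was the only call among 10 zinc genes (beside 0.308% of all tested genes that rose). It was at 11.6, 6.34 and 9.81 CPM and 22.3, 14.5 and 18.7 CPM (1.01 ± 0.14, adjusted p 0.00462), and it held in all 6 fits without a library. Of 19 sulfur limitation genes 0 were DEGs after flg22, and 16 estimates were positive. An unadjusted p under 0.05 was found for 7 (beside 13.3% of all tested genes), and DESeq2 with the block called 1. In mock, 6 of the 19 were called higher (beside 0.445% of all tested genes). The lowest edgeR value after flg22 was that of GGCT2;1 (1.38 ± 0.31, adjusted p 0.0669). Of 13 nitrate genes 0 were DEGs by either tool and 6 had an unadjusted p under 0.05 (beside 13.3% of all tested genes). LBD37, a repressor of nitrate genes, passed in p with a change under 1.5-fold (-0.54 ± 0.11, adjusted p 0.044).

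A set of lower genes, grouped after their values were seen, varied strongly with replicate number in both genotypes. ASN1, the asparagine synthetase induced by sugar shortage, was at 133, 49.7 and 11.9 CPM in Col-0 and 56.8, 16.6 and 3.8 CPM in a1a2 (-1.41 ± 0.27, adjusted p 0.0374). BCAT-2, of branched-chain amino acid breakdown, was at 33.9, 10.1 and 1.89 CPM and 11.1, 3.49 and 1.04 CPM (-1.46 ± 0.25, adjusted p 0.0205). The dormancy-associated family gene AT2G33830 was at 316, 144 and 14.4 CPM and 179.8, 44.1 and 5.77 CPM (-1.24 ± 0.21, adjusted p 0.0212). In all 3 the genotypes overlapped, replicate 1 was highest and replicate 3 lowest in both, and a1a2 was lower within each number. The clock-controlled blue light receptor gene FKF1 had the same pattern (20.4, 17 and 2.62 CPM and 11.9, 5.06 and 1.23 CPM, -1.21 ± 0.22, adjusted p 0.0238). It was the only call among 19 clock genes (beside 0.519% of all tested genes that fell). ASN1 and AT2G33830 were called in 1, FKF1 in 2 and BCAT-2 in 3 of the 6 fits without a library, and FKF1 had an adjusted p of 0.183 without replicate 2 of a1a2.

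All 17 tested flavonoid and anthocyanin genes had positive log2 fold changes, with a median of 0.348. An unadjusted p under 0.05 was found for 8 (beside 13.3% of all tested genes), and 1 was a DEG (beside 0.308% that rose). This was UGT79B1, an anthocyanin glycosyltransferase gene, at 0.308, 0.155 and 1.75 CPM in Col-0 and 0.353, 0.313 and 9.82 CPM in a1a2 (2.01 ± 0.41, adjusted p 0.0453). Its difference sat in replicate 3, and without replicate 3 of a1a2 the log2 fold change was 1.09 (adjusted p 0.608). Among 6 KNOX genes and repressors 0 were DEGs by either tool and 0 had an unadjusted p under 0.05; the lowest adjusted p was that of AS1 (0.12 ± 0.11, adjusted p 0.714).

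Terpene, suberin and cell wall genes also appeared among the lower DEGs and were grouped after their values were seen. The cineole synthase genes AT3G25820 and AT3G25830 are near-identical copies whose reads may have been divided, and they had log2 fold changes of -1.14 ± 0.22 (adjusted p 0.0381) and -1.09 ± 0.21 (adjusted p 0.045). AT3G25820 was called in 2 and AT3G25830 in 0 of the 6 fits without a library. The adjacent genes AT3G28290 and AT3G28300 had identical values in every library and count as 1 measurement. The fatty acid reductase gene FAR4, of suberin alcohols, was at 10.2, 10.7 and 15.7 CPM in Col-0 and 2.77, 5.06 and 8.63 CPM in a1a2 (-1.23 ± 0.17, adjusted p 0.00409). LAC7, a laccase, was at 98.1, 83 and 85.4 CPM and 57.7, 45.5 and 54.9 CPM (-0.76 ± 0.14, adjusted p 0.034) and was called in none of the 6 fits without a library, whereas FAR4 was called in all of them. FAR1 (AT5G22500), a relative of FAR4, had a log2 fold change of -0.76 ± 0.11 (adjusted p 0.00634). GLP4, a germin-like protein, was at 6.42, 14.5 and 10.1 CPM and 2.62, 2.19 and 3.21 CPM (-1.89 ± 0.28, adjusted p 0.00826) and, of the 6 fits without a library, lost its call in the one without replicate 2 of Col-0. The root marker with the lowest adjusted p was HKT1, a sodium transporter gene (-0.85 ± 0.22, adjusted p 0.109), and the shoot marker was GAPA, of the Calvin cycle (0.18 ± 0.1, adjusted p 0.469). Summed root markers were lowest in replicate 1 of a1a2 (3317 CPM), and their part in these falls was not tested.

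Regulators and oxidative enzymes among the lower DEGs were again picked after their values were seen. WRKY31, a WRKY factor, was at 8.02, 8.1 and 8.5 CPM in Col-0 and 3.07, 3.55 and 4.84 CPM in a1a2 (-1.12 ± 0.16, adjusted p 0.00522) and was called in all 6 fits without a library. NAC047, a NAC factor, was at 13.3, 13.6 and 7.92 CPM and 5.29, 4.8 and 4.59 CPM (-1.22 ± 0.21, adjusted p 0.0205), without overlap, and was called in 3 of these fits. DOX1, an alpha-dioxygenase that makes oxylipins, was at 174, 233 and 208 CPM and 75.5, 65.8 and 69.6 CPM (-1.53 ± 0.25, adjusted p 0.0168), wide apart but called in only 1 of them. The peroxidase gene AT2G38390 was at 135, 180.1 and 181 CPM and 66.2, 77.9 and 121 CPM (-0.94 ± 0.13, adjusted p 0.00566) and, of these fits, lost its call in the one without replicate 2 of a1a2. AOX1D, a mitochondrial alternative oxidase, had a log2 fold change of -1.95 ± 0.38 (adjusted p 0.0344) and was called in none of the 6.

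Most differences were present without the elicitor too. In mock-treated seedlings, whose libraries are separate from those above, 196 genes were DEGs (0.959%), 91 of them higher (0.445%) and 105 lower (0.514%) in a1a2. They shared 120 genes with the DEGs after flg22, which is 71.0% of the 169 and 61.2% of the 196. Of the 63 higher DEGs 53 were also called in mock, as were 67 of the 106 lower ones, and 168 of the 169 had the same sign in mock. The exception, AT1G11925, had a log2 fold change of -1.64 ± 0.32 after flg22 and 1.76 ± 1.23 in mock, where it was not called.

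A gene called after flg22 but not in mock is not thereby shown to depend on flg22. Of these 49 genes, 41 had an unadjusted p under 0.05 in mock. The interaction of genotype and treatment, which tests the dependence directly, gave 0 genes of 20439 in edgeR, with the lowest adjusted p at 1. Before adjustment, 431 genes (2.11%) had p under 0.05, among them 14 of the 169 DEGs (8.28%), which were chosen on libraries that enter this test. The 2.11% lies under the share of 0.05 expected if no gene had an interaction, so this test was conservative. Its 0 calls do not show that interactions were absent. DESeq2 with the block called 4 genes, of which LBD41 and AT5G24240 were DEGs after flg22. The other 2, AT4G24110 and CBP60G, were outside the rule for named genes and were chosen after their values were seen.

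Levels in the 4 groups show where these estimates came from. LBD41 stood at 3.15, 3.1 and 2.8 CPM in mock-treated Col-0 and 66.3, 32.7 and 20.1 CPM in mock-treated a1a2, so its genotype difference of 3.6 ± 0.23 in mock was larger than that after flg22 (interaction -1.45 ± 0.3, p 0.000539, adjusted p 1). AT5G24240 stood at 4.81, 6.33 and 6.97 CPM in mock-treated Col-0 and 0.592, 1.27 and 0.7 CPM in mock-treated a1a2, a difference of -2.85 ± 0.36 (interaction -1.94 ± 0.53, p 0.00395, adjusted p 1). After flg22, all Col-0 libraries of AT5G24240 lay above all mock-treated ones, and a1a2 stayed at or under 2.22 CPM. CBP60G, a calmodulin-binding activator of salicylic acid synthesis, was at 8.01, 14.4 and 9.85 CPM in Col-0 without and 165, 111 and 126 CPM with flg22, while a1a2 had 5.53, 4.12 and 5.2 CPM and 156, 171 and 139 CPM (interaction 1.32 ± 0.3, p 0.00131, adjusted p 1). AT4G24110, a core hypoxia gene, was at 2.31, 1.2 and 0.68 CPM and 63.8, 48.3 and 41.3 CPM in Col-0 and at 19.4, 8.28 and 4.46 CPM and 94.7, 80.1 and 63.3 CPM in a1a2 (interaction -2.23 ± 0.4, p 0.000199, adjusted p 1). For both genes the genotypes overlapped after flg22.

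The 6 higher and 6 lower genes with the lowest p among those called after flg22 alone were selected by rule. The higher ones were AT5G46295 and the hypoxia genes HRE1 and NIP2;1, given above, with FSD1, AT2G47560 and AT1G23205. AT5G46295 was almost undetected in mock, at 0, 0 and 0 CPM in Col-0 and 0, 0.131 and 0.087 CPM in a1a2 (3.73 ± 1.65). Its genotype difference in mock could therefore not be measured. FSD1, a chloroplast iron superoxide dismutase, was at 5.96, 13.3 and 6.75 CPM in Col-0 and 9.02, 26.6 and 14.4 CPM in a1a2 (0.91 ± 0.16, adjusted p 0.0201), beside 0.37 ± 0.16 in mock (interaction p 0.0333, adjusted p 1). The RING-type gene AT2G47560 rose by 1.23 ± 0.21 (adjusted p 0.0222) and the invertase inhibitor family gene AT1G23205 by 0.91 ± 0.15 (adjusted p 0.0151). These 3 genes each lost their call in 4 of the 6 fits without a library, with an adjusted p of up to 0.169 for FSD1, 0.088 for AT2G47560 and 0.104 for AT1G23205. The lower ones were MYB34, AT3G45680 and AT1G53890, with interaction p-values of 0.0104, 0.00283 and 0.00346 before and 1 after adjustment, and AT1G52190, AT1G28260 and AT3G62270. Those last 3 had log2 fold changes of -0.72, -0.72 and -0.61 (adjusted p 0.00932, 0.0116 and 0.0107), and each lost its call in 3 of the 6 fits without a library, among them the fit without replicate 2 of Col-0.

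**Figure D5:**
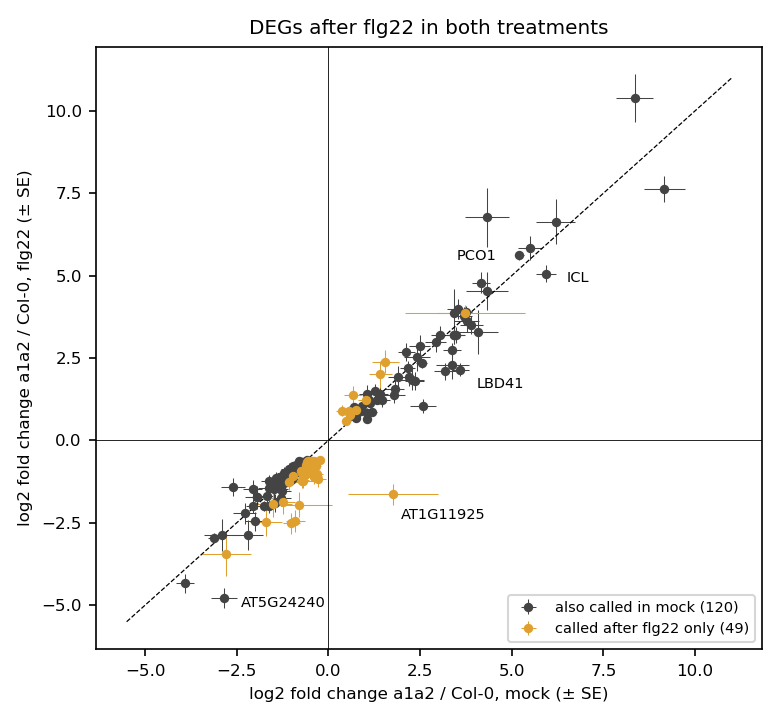
Log2 ratio of a1a2 to Col-0 in mock (horizontal) and after flg22 (vertical) for the 169 DEGs after flg22, with SE bars and the dashed line of equality. Dark points (120) were also called in mock and orange points (49) were not; nearly all lie near the line and in the quadrants of equal sign, with AT1G11925 the single point of opposite sign.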

How the data were processed

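RNA was measured by RNA-seq in 12 libraries of Col-0 and a1a2 seedlings, 3 for each genotype and treatment. The reads were filtered with SOAPnuke, mapped with HISAT and compared with DESeq2 by the authors, with TAIR10 in the submitters' processing notes, and the counting tool and annotation are not given in the sources used here. The authors deposited estimated counts per gene (7.50% of values were not whole), which were rounded to whole numbers. The authors' group means and comparisons (fold changes and p-values) were not used, and 0 columns lacked a sample. Names came from RefSeq, matched for all 23739 genes.

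Genes with low counts were filtered with filterByExpr, which kept 20439 genes and 99.97% of the counts. The 12 libraries were fitted in edgeR 4.0.16 (R 4.3.3) with TMM scaling, a mean per group and the replicate number as a block, and p-values were Benjamini-Hochberg adjusted over all tested genes. The same replicate number marks libraries that deviated together (r of 0.218 to 0.66 over 18 pairs, and 0.526, 0.368 and 0.66 for the flg22 pairs), so the numbers were taken to pair the samples. Libraries of unequal number were not compared in this way. With the block, the p-values measure the spread left after differences between replicate numbers are taken out, estimated over all 12 libraries. The block holds no term for genotype within a replicate number, so mock and flg22 libraries of the same genotype and number were treated as independent. In a1a2 these varied together in ADH1, for example, at 94.1, 29.6 and 30.3 CPM after flg22 and 92.25, 39.15 and 20.81 CPM in mock. Where they do, the p-values for genotype may be too small. The samples were labelled biological replicates. Totals of 20285662 to 22433536 counts per library set the depth. On simulated counts for this comparison, 19, 43, 48 and 50 of 50 genes were recovered at 1.5-, 2-, 4- and 8-fold, with 6 false calls among 20330 genes. The simulated libraries were drawn independently around the fitted means, without variation shared within a genotype and replicate number. The false calls therefore do not give the error rate of the real data.

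Named genes were ATE1 and ATE2, the 12 largest rises and falls at a mean of at least 1 CPM without overlap, DEGs and lowest p of each list, genes named in the study's text, and 6 DEGs per direction absent in mock. The members and lists were chosen with earlier results of these data known, so the list counts are descriptive. A hypoxia list of another study gave names and direction only. The alternatives were fits without the block, with the flg22 libraries alone, with other scaling, filter and fold thresholds, with DESeq2 1.42.0, and without single libraries. Promoter windows were the 300 bases before the annotated start in RefSeq TAIR10.1, and 6 motifs were searched on both strands. Proteomics, the rescue line and the combined hypoxia experiment were not analysed here.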

Additional observations from a re-analysis of the deposited data

How the results depend on the processing

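All 169 genes kept their direction in every alternative in which they were tested, and the number called moved. The replicate numbers were taken to pair the libraries, and the fit without the block called 28 genes (21 higher, 7 lower) after flg22 and 34 in mock. The 6 flg22 libraries alone gave 285 (203 lower) with the block and 24 (17 higher, 7 lower) without it. Testing against the 1.5-fold threshold itself gave 47 (32 higher, 15 lower). DESeq2 with the block called 275 (191 lower) after flg22, 323 in mock and 4 for the interaction, and without the block 82 (37 lower) after flg22. The share of higher genes among the calls was 37.3%, against 75% without the block, 68.1% against the threshold and 54.9% in DESeq2 without it. Leaving out 1 library gave 69 to 156 DEGs (40 to 63 higher, 24 to 103 lower). Leaving out a replicate number in both genotypes, an alternative added after seeing the data like the DESeq2 and unblocked interaction fits, gave 49 to 248 (35 to 90 higher, 14 to 158 lower). The cause was not tested. GSL5 (0.01) came to -0.03 with library size alone, to between -0.07 and 0.11 without 1 library and to -0.04 without replicate 1. AS1 (0.12) came to between 0 and 0.25 without 1 library and to -0.01 without replicate 1. SAG21 (0.09) lay between 0 (without replicate 2 of a1a2) and 0.19. On simulated counts, 19 of 50 genes set at 1.5-fold were called. That size is the threshold for a call itself, so genes estimated below it were missed whatever the depth.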
